A study of Mus musculus with 6 samples.

Results

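Acute-phase proteins are secreted or cell-surface proteins whose genes are switched on in inflammation, in the liver and also in epithelium, fat, endothelium and leukocytes. Cytokines of the IL-6 family bind receptors that share the subunit gp130, Janus kinases attached to it phosphorylate STAT3, and STAT3 then acts as a transcription factor on many acute-phase genes and on Socs3, whose product shuts the receptor down again. IL-1, TNF and IL-17 act on many of the same genes through NF-kB and C/EBP factors. The genes described here are 9 of the 19937 genes measured: the iron and copper handlers Hp, Lcn2, Steap4 and Cp, the secreted proteins Serpina3n, Lrg1 and Saa3, and the pathway genes Socs3 and Stat3. Each was represented by the probe set that names that gene alone and has the highest mean over all 6 arrays. The gene names were proposed with the group differences of these same tumors known, so those differences are a description of the members and support nothing further.

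The tumors grew from 4T1, a mouse mammary carcinoma line, of which 750000 cells were placed in the fourth mammary gland of each Balb/C mouse. On day 7 the mice were randomized to TKI258 (dovitinib, an inhibitor of receptor tyrosine kinases that include FGF, VEGF and PDGF receptors), given by mouth at 40 mg/kg every day for 14 days, or to water on the same schedule. RNA of 3 individual tumors per group was hybridized to Affymetrix arrays, 1 array per tumor. All tumors thus share 1 cell line and a mouse strain, and the age of the mice is not given in the sources used here. Values are log2 signals, on which 1 unit is a doubling, and all differences below are TKI258 minus water. The epithelial keratin genes Krt8 and Krt18 stood at 11.55 to 11.88 and 11.13 to 11.70, against array medians of 6.38 to 6.44. Of the 10 mammary epithelial markers measured, 4 lay below every array median on average, and the list mean was 7.40 to 8.26 over the tumors. The liver marker list, by contrast, had all 9 measured members below every array median on average, with Apoa2 at 5.91 to 6.30, Apoa1 at 5.94 to 6.18 and Tat at 5.06 to 5.27.

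STAT dimers bind DNA at the palindromic site TTCNNNGAA, a sequence that reads the same on both strands in its fixed letters. RefSeq promoter windows (GRCm38.p6) were matched for 8 of the 9 members, and the 250 bases before each start were searched for it. The windows of 2 members held it, against 7.02% of all 32851 promoter windows of that length. These windows, of Steap4 and of the feedback gene Socs3, are shown because they held the motif, whatever the group differences of the genes. Capitals mark the motif. The Steap4 stretch lies at chr5:7960316-7960404 on the plus strand, with the motif centred 112 bases before the start, and the Socs3 stretch at chr11:117969502-117969530 on the minus strand, 150 bases before the start of the model used and inside the span of a longer Socs3 model.
Steap4: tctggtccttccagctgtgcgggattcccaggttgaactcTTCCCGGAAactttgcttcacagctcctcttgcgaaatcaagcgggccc
Socs3: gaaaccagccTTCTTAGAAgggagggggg
The windows of Lcn2, Cp, Saa3, Stat3, Serpina3n and Lrg1 did not hold these letters. That says nothing about binding of a STAT factor to these genes, and the arrays measured no binding.

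All 9 members had a higher mean in TKI258 tumors than in water tumors, where 56.6% of all genes did. For Hp, Serpina3n, Lrg1, Steap4 and Lcn2 every TKI258 tumor lay above every water tumor, a pattern seen in 8.66% of all genes. The log2 difference was at least 1 for Hp, Serpina3n, Lrg1, Steap4 and Saa3, that is 5 of 9, against 0.236% of all genes. The median difference over the members was 1.04, and over all genes 0.02. These shares come from the contrast the members were chosen on, and nothing is read from the comparison. None of the 9 passed limma's test over the whole array, with adjusted p from 0.484 for Lrg1 to 0.958 for Socs3. No other probe set passed either (0 of 34760, 0%), while 2803 (8.06%) had an unadjusted limma p under 0.05. With 3 tumors per group, and whole tumors profiled, a higher signal cannot be split into more cells of a type and more RNA per cell.

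**Figure D1:**
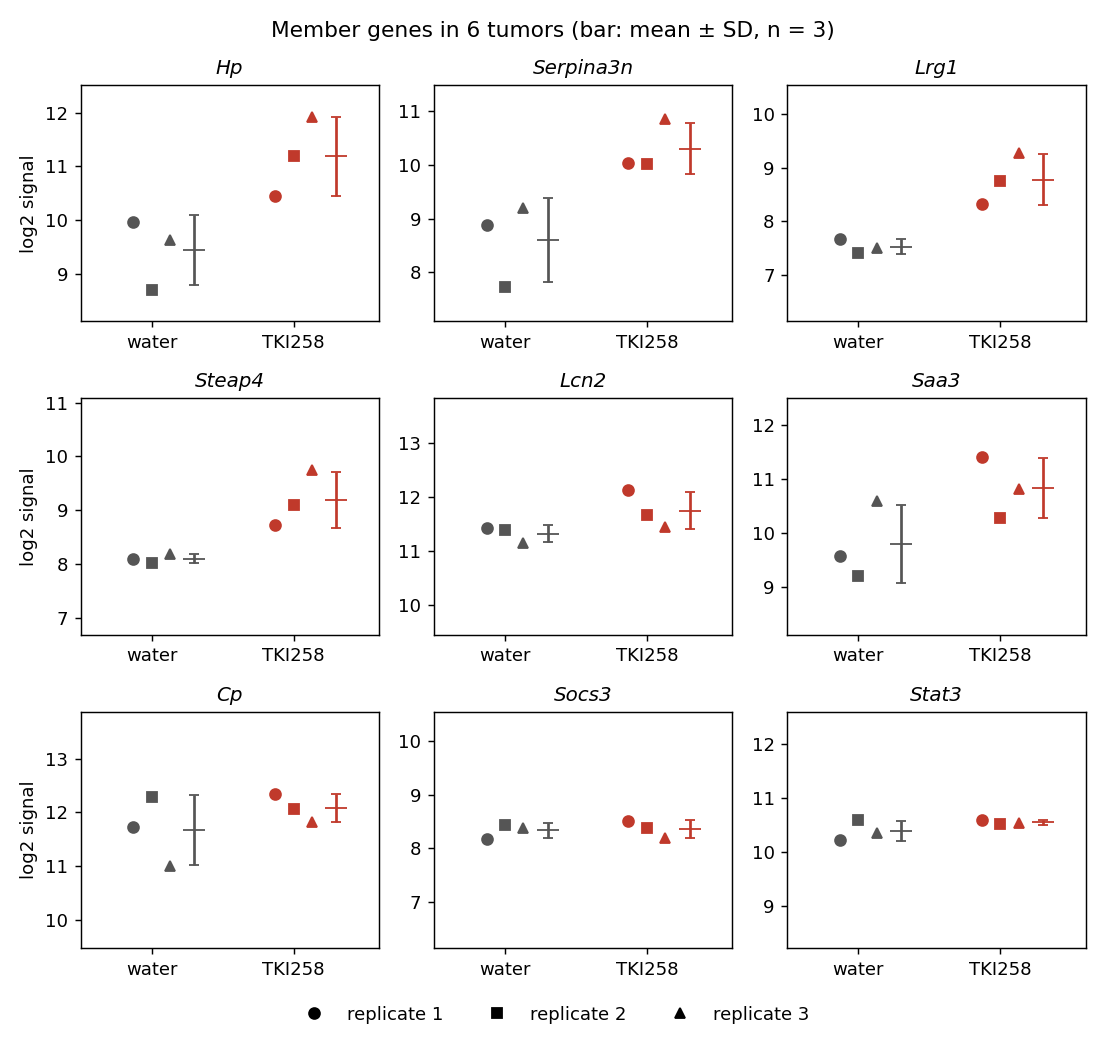
Log2 signal (vertical axis, the same height in log2 units in every panel) of the 9 member genes in 3 water (grey) and 3 TKI258 tumors (red); shapes give the replicate number and bars the mean with its SD (n = 3). Groups are apart for Hp, Serpina3n, Lrg1 and Steap4, touch for Lcn2, and overlap for Saa3, Cp, Socs3 and Stat3.

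Haptoglobin, encoded by Hp, captures free hemoglobin. Hp signal (probe set 10581605) was 9.97, 8.71 and 9.64 in water replicates 1, 2 and 3 and 10.44, 11.20 and 11.92 in TKI258 replicates 1, 2 and 3. The groups did not overlap, and the tumors nearest to each other were water replicate 1 and TKI258 replicate 1. Group means were 9.44 ± 0.65 and 11.19 ± 0.74 (SD, n = 3), a log2 difference of 1.75 ± 0.45 (SE) or 3.36-fold, larger than either SD. It was the largest difference among the members, and 0.0201% of all genes had a higher one.

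Steap4 is a membrane metalloreductase that reduces iron and copper for uptake. Its signal (probe set 10519497) was 8.09, 8.01 and 8.18 in the water tumors and 8.72, 9.09 and 9.75 in the TKI258 tumors, in replicate order. The water tumors lay within 0.17 of each other and the TKI258 tumors spread over 1.03, so the scatter was in the treated group. The difference was 1.10 ± 0.25 (SE), 2.14-fold, from 8.09 ± 0.08 to 9.19 ± 0.52 (SD, n = 3).

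Lcn2 encodes lipocalin 2, which sequesters iron bound to bacterial siderophores, and Cp encodes ceruloplasmin, a copper-carrying ferroxidase of plasma. Lcn2 (probe set 10481627) was 11.43, 11.38 and 11.15 in water and 12.13, 11.68 and 11.44 in TKI258 tumors. Its groups were 0.01 apart at their nearest, between water replicate 1 and TKI258 replicate 3. The Lcn2 difference was 0.43 ± 0.18 (SE), and dropped to 0.24 without TKI258 replicate 1. Cp (probe set 10490989) was 11.73, 12.29 and 11.01 in water and 12.35, 12.07 and 11.83 in TKI258 tumors. Here the water tumors covered almost the whole range, from the lowest of the 6 values in replicate 3 to one above TKI258 replicates 2 and 3 in replicate 2. The Cp difference of 0.41 ± 0.32 (SE) was below the water SD of 0.64. It was 0.07 without water replicate 3 and 0.72 without water replicate 2.

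Serpina3n encodes a secreted inhibitor of serine proteases related to antichymotrypsin. Its signal (probe set 10398075) was 8.89, 7.73 and 9.20 in water and 10.04, 10.02 and 10.85 in TKI258 tumors. The lowest treated tumor was 0.82 above the highest water tumor, the widest separation among the members, and water replicate 2 was far below the other tumors. Means were 8.60 ± 0.78 and 10.30 ± 0.47 (SD, n = 3), a difference of 1.70 ± 0.41 (SE) or 3.24-fold. Serpina3n is one of a cluster of closely related mouse genes, and 8 of its 10 relatives sought had no probe set of their own here, so signal from a close copy cannot be told apart here.

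Lrg1 encodes a secreted leucine-rich repeat glycoprotein known to modify TGF-beta signaling in endothelium. It stood at 7.68, 7.41 and 7.51 in water and 8.32, 8.74 and 9.27 in TKI258 tumors (probe set 10451953). Its water SD was 0.14 and its difference 1.25 ± 0.23 (SE), 2.37-fold, which gave it the smallest p of the members. Saa3, the serum amyloid A gene expressed outside the liver in mice, was 9.57, 9.20 and 10.59 in water and 11.40, 10.28 and 10.81 in TKI258 tumors (probe set 10563597). Water replicate 3 lay above TKI258 replicate 2, so the Saa3 groups overlapped. The Saa3 difference was 1.04 ± 0.41 (SE), 0.75 without water replicate 2 and 1.45 without water replicate 3.

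The transcription factor gene and that of its feedback inhibitor had the smallest differences of the 9. Stat3 (probe set 10391301) was 10.23, 10.59 and 10.35 in water and 10.60, 10.51 and 10.53 in TKI258 tumors. The 3 treated values lay within 0.08 of each other, and water replicate 2 was inside their range. The Stat3 difference was 0.16 ± 0.11 (SE), 0.08 without water replicate 1 and 0.26 without water replicate 2. Socs3 (probe set 10393449) was 8.18, 8.44 and 8.38 in water and 8.51, 8.39 and 8.19 in TKI258 tumors, with full overlap and a difference of 0.03 ± 0.12 (SE). A second Socs3 probe set, 10383010, with a mean of 6.06 against 8.35, disagreed: it was 6.04, 6.34 and 6.14 in water and 5.91, 5.91 and 6.01 in TKI258 tumors, with every treated tumor below every water tumor and a difference of -0.23 ± 0.10 (SE). The mean of both Socs3 probe sets differed by -0.10. The other 8 members had 1 probe set each.

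**Figure D2:**
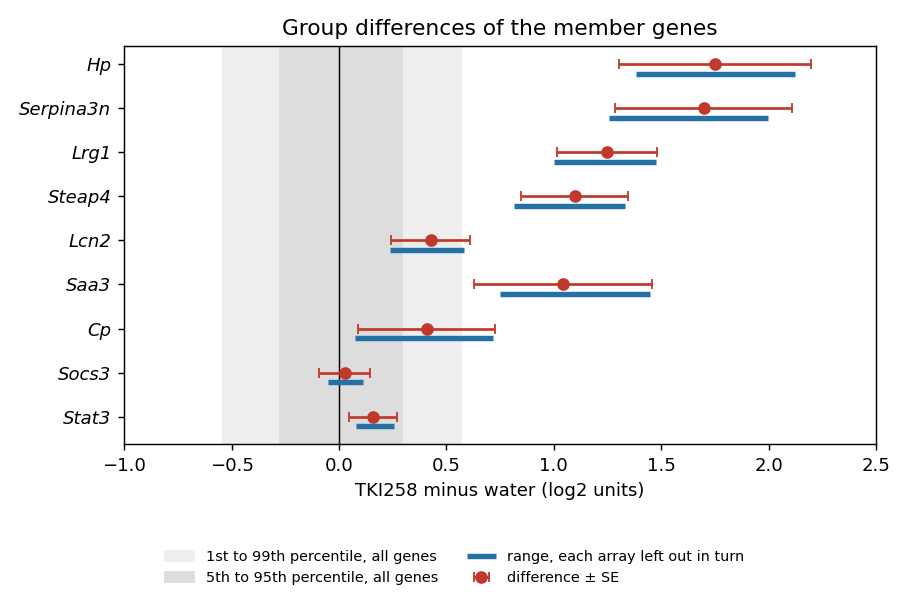
Difference between group means (horizontal axis, log2 units) for each member, with its SE (red) and the range of the difference when each of the 6 arrays was left out in turn (blue); grey bands hold the middle of all 19937 genes. Hp, Serpina3n, Lrg1, Steap4 and Saa3 lie beyond the 99th percentile of all genes (0.57), and Socs3 and Stat3 lie inside the 5th to 95th percentile band (-0.28 to 0.29).

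Within the treated group the members fell into 2 patterns by which tumor was highest. Hp, Serpina3n, Lrg1 and Steap4 were highest in TKI258 replicate 3, which exceeded TKI258 replicate 1 by 1.48, 0.81, 0.95 and 1.03. Saa3, Lcn2, Cp, Socs3 and Stat3 were highest in TKI258 replicate 1, and replicate 3 was lower than it by 0.06 (Stat3) to 0.68 (Lcn2). Among water tumors, Hp and Serpina3n were lowest in replicate 2, by 0.93 and 1.16 against the next tumor, while Cp, Socs3 and Stat3 were highest there. Correlations between members over the 6 arrays followed this split only in part. Lrg1 and Steap4 had a Pearson correlation of 0.99, Hp correlated with Serpina3n, Lrg1 and Steap4 at 0.94 to 0.96, and Hp with Cp at 0.05. Saa3, also lowest in water replicate 2, correlated with Serpina3n at 0.81 and Hp at 0.59. With Lcn2 and Cp of its own pattern Saa3 correlated at 0.54 and -0.05. These are descriptions over 6 arrays that also carry the group difference.

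Marker genes of adipocytes varied across the tumors in step with the first pattern. The mean of 12 adipocyte markers was 7.18, 6.22 and 6.75 in water replicates 1, 2 and 3 and 7.24, 7.88 and 8.69 in TKI258 replicates 1, 2 and 3. Summed levels were 74.6 to 86.1 in water and 86.9 to 104 in TKI258 tumors. A summed level, here and below, is a sum of log2 signals, so ratios of such sums are not fold changes. All 12 had higher means in TKI258 tumors, as did 56.6% of all genes. Their median difference of 1.22 was 0.79 without TKI258 replicate 3, and 7 of the 12 had every treated tumor above every water tumor, against 8.66% of all genes. The fatty acid carrier Fabp4 had means of 8.71 ± 0.40 and 9.97 ± 0.86 (SD, n = 3) in the water and TKI258 groups, the lipid uptake gene Cd36 8.27 ± 0.27 and 9.40 ± 0.91, and the lipase gene Lpl 7.87 ± 0.71 and 9.06 ± 0.80. Hp, Lcn2, Saa3, Lrg1 and Steap4 are known to be expressed by adipocytes as well as by other cells. The Pearson correlation with the mean of these markers was 0.99 for Hp, 0.95 for Lrg1, 0.94 for Steap4 and 0.91 for Serpina3n. It was 0.50 for Saa3, 0.21 for Lcn2, 0.11 for Stat3, 0.03 for Cp and -0.53 for Socs3. These correlations over 6 arrays also carry the group difference. The part of adipocyte RNA in the differences of the members was not tested. Hp and Cidec, a lipid droplet gene, were the closest match of any member with another gene: Cidec was 7.11, 5.62 and 6.51 in water and 7.52, 8.28 and 9.07 in TKI258 tumors (Pearson correlation with Hp 0.998 over 6 arrays).

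**Figure D3:**
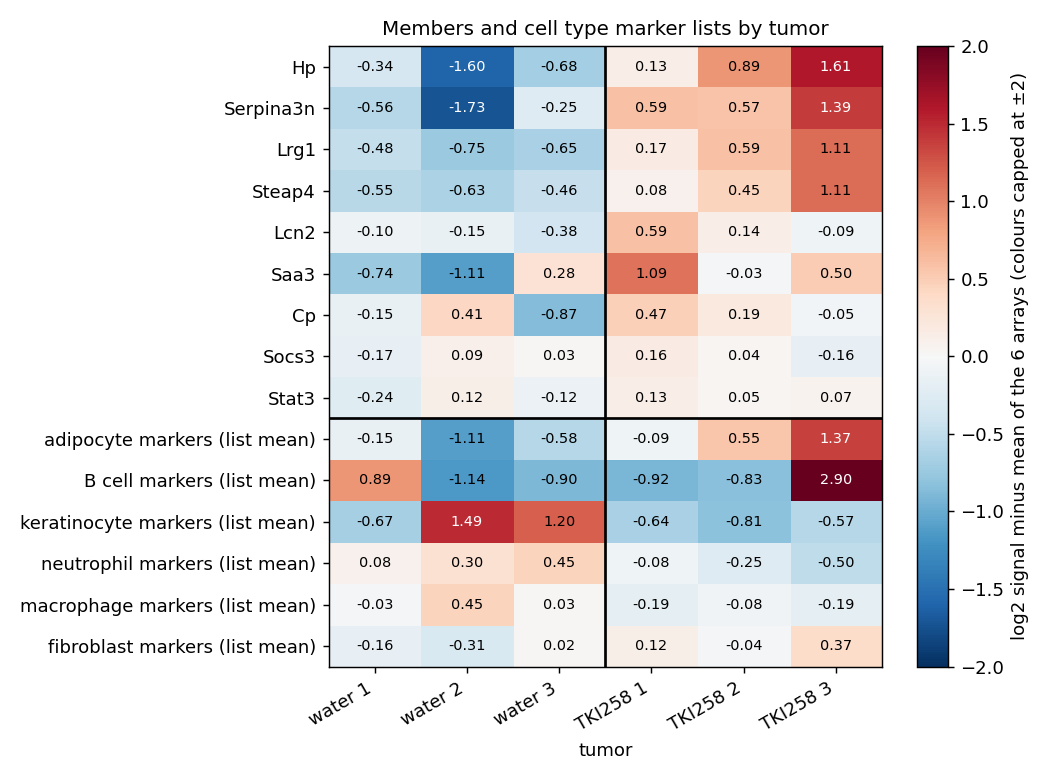
Log2 signal of each member (upper 9 rows) and mean of 6 cell type marker lists (lower 6 rows) in each tumor, as the deviation from the mean of the 6 arrays. Hp, Serpina3n, Lrg1, Steap4 and the adipocyte list share a highest value in TKI258 replicate 3 and a lowest value in water replicate 2, while Lcn2, Saa3 and Cp are highest in TKI258 replicate 1.

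Other cell types also differed between single tumors. B cell markers (9 measured, summed level 44.5 to 62.8 in water and 46.6 to 80.9 in TKI258 tumors) were high in water replicate 1, with a list mean of 6.98, and in TKI258 replicate 3, with 8.99, against 4.95 to 5.26 elsewhere. In that TKI258 tumor Ighm was 9.72, Cd79b 9.76 and Jchain 9.87. Without both of these tumors the median difference of the members was 0.81. Groups apart with all tumors, as for Hp, Serpina3n, Lrg1, Steap4 and Lcn2, cannot overlap with fewer, so their separation then shows nothing further. Of all genes, 24.8% then had every remaining TKI258 tumor above every remaining water tumor. Keratinocyte markers (9 measured, summed level 46.6 to 66.1 in water and 45.3 to 47.5 in TKI258 tumors) were high in water replicates 2 and 3, where the skin keratin Krt5 was 9.35 and 9.37, Krt10 8.24 and 8.60 and the cornified envelope gene Sprr1a 8.76 and 7.86. Against water replicate 1 alone all 9 members were higher in every TKI258 tumor, with a median difference of 1.10, but 22.9% of all genes were too, and 1 water tumor gives no spread of its own.

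Markers of neutrophils and macrophages had mostly lower means in TKI258 tumors. Of all genes, 56.6% had higher means there, the share to set beside the counts of this paragraph. Neutrophils carry Hp, Lcn2 and Lrg1 proteins in their granules, and 11 of 13 neutrophil markers had lower means in TKI258 tumors, with a median difference of -0.46 and summed levels of 87.7 to 92.6 in water and 80.2 to 85.6 in TKI258 tumors. The calprotectin genes S100a9 and S100a8 differed by -1.06 ± 0.43 and -1.07 ± 0.51 (SE), and the chemokine receptor Cxcr2 by -0.49 ± 0.31. All 11 macrophage markers had lower means (median -0.26, summed level 101 to 107 in water and 99.6 to 101 in TKI258 tumors), among them the complement genes C1qa (-0.10 ± 0.20) and C1qb (-0.26 ± 0.14) and the lysosomal Cd68 (-0.23 ± 0.16). Of 10 fibroblast markers 8 had higher means (median 0.20, summed level 90.3 to 93.7 and 93.1 to 97.1), led in level by Col1a1 (0.35 ± 0.24), Col1a2 (0.29 ± 0.22) and Dcn (0.79 ± 0.23). Of 10 mammary epithelial markers 8 had higher means (median 0.23, summed level 74.0 to 81.6 and 78.7 to 82.6): Krt8 differed by -0.13 ± 0.10, Krt18 by -0.32 ± 0.11 and the tight junction gene Cldn4 by 0.91 ± 0.30. The epithelial median was 0.09 without TKI258 replicate 3 and 0.10 without water replicate 2. The 10 T and NK cell markers had a median of 0.30 that was -0.33 without TKI258 replicate 3: their mean was 6.32, 5.38 and 5.63 in water and 5.41, 5.33 and 7.46 in TKI258 tumors, so only that treated tumor lay above the water mean of 5.78. The 10 endothelial markers had a median of -0.18 (-0.32 to -0.06 with each array left out), with 3 higher and 7 lower means. Vwf and Emcn, named after their values were seen, differed by 0.47 ± 0.12 and -0.74 ± 0.16. Every treated tumor lay above every water tumor for Vwf and below for Emcn, 1 of 10 each, against 8.66% and 6.49% of all genes. Without TKI258 replicate 3 the neutrophil median was -0.22, and without water replicate 2 the macrophage median was -0.13. No marker of any list passed limma's test over the array, and the part of these cell types in the members' differences was not tested.

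The cytokines that signal through gp130 had mostly lower means in treated tumors. Of 8 ligand genes measured, 2 had higher and 6 lower means, while 56.6% of all genes had higher means. The median difference of the ligands was -0.07. Il6 itself was 4.91, 5.39 and 6.67 in water and 5.32, 4.96 and 4.35 in TKI258 tumors. The Il6 difference was -0.78 ± 0.47 (SE), and -0.27 without water replicate 3. Water replicate 1, the water tumor without high keratinocyte markers, was at 4.91, near the TKI258 mean of 4.88. Water replicate 2, high in these markers, was at 5.39, near TKI258 replicate 1 at 5.32. The part of keratinocyte content in the Il6 difference was not tested. The Il6 mean over all 6 tumors, 5.27, lay below every array median. Lif had the highest difference of the ligands, 0.35 ± 0.19, which was 0.18 without TKI258 replicate 1. Il11, named after its value was seen, was the one ligand with every treated tumor below every water tumor: 6.54, 6.43 and 6.65 against 6.10, 5.77 and 5.72, a difference of -0.68 ± 0.13. For comparison, 6.49% of all genes had every treated tumor below. The Il11 mean over all 6 tumors, 6.20, also lay below every array median.

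The 6 receptor genes measured all had slightly higher means in TKI258 tumors (median 0.19), as did 56.6% of all genes. The receptor for oncostatin M, Osmr, was 9.69, 9.97 and 9.54 in water and 10.30, 10.08 and 9.94 in TKI258 tumors, a difference of 0.37 ± 0.15 (SE). The IL-6 receptor gene Il6ra differed by 0.05 ± 0.12 and Il6st, which encodes gp130, by 0.06 ± 0.16. Il27ra had the highest difference of the list, 0.42 ± 0.43, through TKI258 replicate 3 alone (7.72 against 6.02 to 6.47 in the other tumors). Downstream, 6 of 8 Janus kinase and STAT genes had higher means (median 0.09, from -0.12 ± 0.09 for Stat6 to 0.20 ± 0.14 for Jak1). Without TKI258 replicate 3 these differences were -0.061 for Stat6 and 0.053 for Jak1, and the list medians were 0.026 for the receptors and -0.0042 for the kinases and STATs. Jak2 differed by 0.14 ± 0.21 and Stat5a by 0.19 ± 0.12. Of 15 measured SOCS, PIAS and phosphatase genes, which restrain the pathway, 7 were higher and 8 lower (median -0.05), between Socs6 at -0.21 ± 0.13 and Socs5 at 0.28 ± 0.13. The limma test over the array called 0 genes of these lists.

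Other genes that STAT3 is known to regulate had mostly lower means in treated tumors. Of 21 measured, 16 had lower and 5 higher means, while 56.6% of all genes had higher means. The median difference was -0.13 (-0.20 to -0.08 with each array left out), and 0 passed limma's test in either direction. Birc5 and Vim, named after their values were seen, had every treated tumor below every water tumor (-0.35 ± 0.09 and -0.09 ± 0.08, SE). They are 2 of 21, against 6.49% of all genes. The transcription factor genes Cebpd and Cebpb, which take part in the acute-phase response, differed by -0.26 ± 0.15 and -0.13 ± 0.18 (SE). The kinase gene Pim1 differed by -0.19 ± 0.12 and the NF-kB cofactor gene Bcl3 by 0.00 ± 0.13, a value whose sign turned with quantile normalization (0.02). The extremes of the list were Fos, the immediate early factor, at -0.45 ± 0.18 and Zeb1 at 0.26 ± 0.23. The inducers of the other route had a median of -0.07 over 12 genes, 4 higher and 8 lower. Il1b was 9.09, 10.12 and 10.27 in water and 9.34, 9.13 and 8.65 in TKI258 tumors, a difference of -0.79 ± 0.34. Water replicates 2 and 3, the tumors high in keratinocyte markers, lay above all other tumors for Il1b. Water replicate 1, at 9.09, was near the TKI258 mean of 9.04. The part of keratinocyte content in the Il1b difference was not tested. Il17ra, a receptor subunit for IL-17, had the highest difference of that list, 0.25 ± 0.09. It was the 1 gene of these 12 with every treated tumor above every water tumor, near the 8.66% of all genes.

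**Figure D4:**
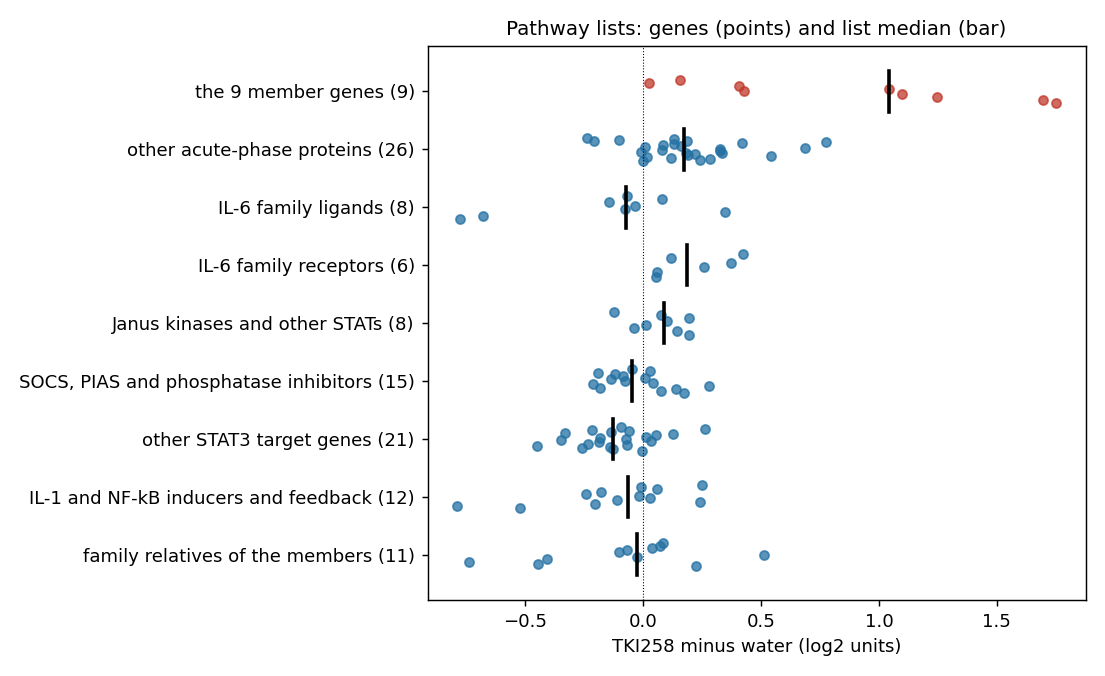
Difference between TKI258 and water means (horizontal axis, log2 units) for the 9 members (red) and for the measured genes of 8 pathway lists (blue); black bars are list medians and numbers in parentheses count genes. The members have a median of 1.04, and the list medians lie between -0.13 and 0.19.

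Among 26 other acute-phase genes measured, 21 had higher and 5 lower means in TKI258 tumors, while 56.6% of all genes had higher means. The median difference of the 26 was 0.17 (0.07 without TKI258 replicate 3 and 0.09 without water replicate 2) against 0.02 over all genes. Of the 26, 0 passed limma's test over the array. On average 18 of the 26 lay below every array median, among them the liver-type serum amyloids Saa1 (3.07 to 3.29 over the 6 tumors) and Saa2 (3.97 to 4.87), which differed by 0.00 ± 0.10 and 0.24 ± 0.22 (SE). Serping1, which encodes the C1 inhibitor, had the highest difference, 0.78 ± 0.38: it was 9.52, 8.74 and 9.99 in water and 10.19, 9.66 and 10.74 in TKI258 tumors, with overlap. Leaving out water replicate 2 gave 0.44 and leaving out TKI258 replicate 3 gave 0.51. F3, the tissue factor gene, had the lowest, -0.24 ± 0.12 (-0.12 without water replicate 3), and every treated tumor was below every water tumor for it. That is 1 of 26, against 6.49% of all genes with this pattern. The hemopexin gene Hpx, which encodes the heme-binding counterpart of haptoglobin, with Itih4 and Orm3, all named after their values were seen, were the other acute-phase genes with every treated tumor above every water tumor (0.33 ± 0.09, 0.32 ± 0.10 and 0.22 ± 0.10). These are 3 of 26, near the 8.66% of all genes with this pattern.

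Relatives of the members lay on both sides of 0. The metalloreductase genes Steap1 and Steap2 were lower where Steap4 was higher: Steap1 was 8.61, 9.15 and 9.03 in water and 8.26, 8.37 and 7.96 in TKI258 tumors (-0.74 ± 0.17, SE), and Steap2 was 10.32, 10.39 and 10.62 against 10.01, 10.18 and 9.92 (-0.41 ± 0.12). In both, that is 2 of 11 relatives, every treated tumor was below every water tumor, against 6.49% of all genes. Steap2 had 2 probe sets, and only the one with the higher mean is described. Steap3 differed by -0.03 ± 0.10. Heph, a membrane ferroxidase related to ceruloplasmin, had the highest difference of the 11 relatives, 0.51 ± 0.19 (0.32 without TKI258 replicate 3). Its signals of 4.77 to 5.72 lay below every array median. Every treated tumor was above every water tumor for Heph, 1 of 11 relatives, near the 8.66% of all genes. The median over the relatives was -0.03, with 5 higher and 6 lower, and none passed limma's test.

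For each member, the gene with the most similar profile over the 6 arrays was sought among genes with a range of at least 1 log2 unit (1296 or 1297 per member). Besides Cidec for Hp, these were the chemokine gene Cxcl12 for Serpina3n (Pearson correlation 0.99), the apolipoprotein gene Apoc1 for Lrg1 (0.99), the growth factor gene Nrg4 for Steap4 (0.99), Coro6 for Lcn2 (0.98), the fibroblast growth factor gene Fgf7 for Saa3 (0.97), the TNF receptor family gene Tnfrsf19 for Cp (0.96), the myeloid receptor gene Trem1 for Socs3 (0.92) and Selenbp1 for Stat3 (0.96). The tenth most similar gene reached 0.98 for Hp and 0.82 for Socs3, so single names carry little weight with 6 arrays. Nrg4 was 4.74, 4.69 and 4.81 in water and 5.16, 5.40 and 6.09 in TKI258 tumors, below every array median in each. Cxcl12 was 7.11, 6.18 and 7.05 in water and 7.62, 7.54 and 8.09 in TKI258 tumors, and Fgf7 was 6.38, 6.11 and 7.01 against 7.38, 6.51 and 7.05.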

How the data were processed

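RNA of 6 tumors (3 water, 3 TKI258) was measured on 1 array each. The authors deposited log2 signals for each probe set, made with RMA; the submitters' processing notes list affy and limma too, with no version. The genome build is not given in the sources used here. All 34760 probe sets and 6 columns were used, and no arrays were identical. Within-group correlations between arrays were 0.981 to 0.993. The number of arrays limits the precision. The platform annotation gave 1 gene to 21640 probe sets, several to 1321 and none to 11799. The symbols of all 9 members matched RefSeq (GRCm38.p6). Genes with several probe sets (954) took the one with the highest mean. Among them, Socs6 and Ighm had 3 probe sets each, and their other probe sets are not described here.

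Groups were compared with limma 3.58.1 in R 4.3.3 (lmFit, eBayes, group as the only term, no filter, two-sided) over all probe sets, with Benjamini-Hochberg adjustment and a threshold of 0.05, and the code was tested on simulated data. The SE is the moderated one. Members and 18 gene lists (8 pathway, 10 cell type) were chosen with earlier results of these data known. The text names all members, preset pathway genes, the highest and lowest difference of each pathway list, the 3 marker genes of highest signal in most cell type lists and the most similar gene of each member; others are marked. Of the preset pathway genes, C3 was not analysed here, and some items are not reported here. Tumors with the same replicate number did not deviate together: correlations of deviations from group means were -0.23, 0.19 and 0.01 for numbers 1, 2 and 3. Alternatives were a low-signal filter, quantile normalization, median centring, a replicate block, array weights, a robust prior with trend, averaging a gene's probe sets, a threshold of 0.1, each array left out and, added after seeing the data, the removal of both B cell-rich or both keratinocyte-rich tumors. A pseudocount does not apply to log2 values.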

Additional observations from a re-analysis of the deposited data

How the results depend on the processing

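The number of probe sets passing limma's test was 0 under every alternative except without water replicate 1 (leaving out each array in turn gave 0 to 3) and without both tumors high in B cell markers (1), and no member passed under any of its 15 alternatives. A threshold of 0.1 also gave 0. The fit with the replicate block called 0 probe sets, and its member median difference was 1.04. The median difference of the members was 0.75 to 1.15 with each array left out and 0.81 to 1.10 under the other alternatives. Of the members, Socs3 turned direction, with the mean of its probe sets (-0.10) and with arrays left out (-0.049 to 0.11). The other 8 stayed higher throughout. Among other named genes, with array weights Cd79b was -0.32, Cebpb 0.035, Bcl3 0.081, Saa1 0.020 and Trem1 0.17. With quantile normalization Bcl3 was 0.021. Without both tumors high in B cell markers Apoa2 was -0.037, Saa1 0.11, Steap3 0.090 and Trem1 0.063. Without both water tumors high in keratinocyte markers C1qa was 0.27, Krt5 0.041, Krt10 0.073, Cd79b -0.67, Jchain -0.060, Cebpb 0.052, Bcl3 0.057, Pim1 0.038 and Trem1 0.21. With each array left out in turn, the range spanned 0 for Il27ra (-0.10 to 0.74), Il6ra (-0.027 to 0.15), Zeb1 (-0.016 to 0.41), C1qa (-0.29 to 0.057), Cd79b (-0.68 to 1.43), Apoa1 (-0.00026 to 0.097), Il6st (-0.10 to 0.21), Jak2 (-0.066 to 0.36), Cebpb (-0.24 to 0.045), Bcl3 (-0.12 to 0.091), Saa1 (-0.063 to 0.072), Saa2 (-0.012 to 0.41), Steap3 (-0.077 to 0.055), Tnfrsf19 (-0.13 to 0.64) and Trem1 (-0.35 to 0.23). Of 70 named genes, 49 had a difference that shrank by over 1.5 times, or turned, in at least 1 of these fits, 26 of them without TKI258 replicate 3. The cause of these turns was not tested. Signals below the array medians may be close to background, which limits what their differences can show.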
